A study of Mus musculus with 6 samples.

Results

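Among the genes of serine, asparagine and folate-dependent one-carbon synthesis, 9 of 10 had less mRNA in regulatory T (Treg) cells differentiated with sorafenib (Sora) than in control Treg cells, and the other one, Mthfd1l, had more. Over all tested genes, 29.9% were called lower and 29.7% higher with Sora. The 10 genes are Phgdh, Psat1, Psph, Shmt1, Shmt2, Mthfd1, Mthfd1l, Mthfd2, Aldh1l2 and Asns. They were chosen by their known enzymatic roles, with earlier results of these data known, from the 22939 gene symbols in the count table. All 10 were among the 13463 genes with enough counts to be tested. Naive CD4+ T cells from spleen and lymph nodes of Foxp3-GFP knock-in mice on the C57BL/6J background were driven towards the Treg fate by anti-CD3, anti-CD28 and TGF-beta1, with IFN-gamma and IL4 blocked by antibodies, and GFP+ cells were sorted for RNA-seq. Control (ctrl-Treg) cells and Sora-Treg cells shared all of this and differed in the addition of Sora, a multikinase inhibitor used against liver cancer. Each group had 3 libraries. The study describes its mice as female. The Sora concentration of the sequenced cells, the age of the Foxp3-GFP mice and the number of animals behind each library were not given in the sources used here. Because Foxp3 drives the GFP used for sorting, the cells compared were those that had already switched Foxp3 on in culture.

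Serine is built from the glycolytic intermediate 3-phosphoglycerate in 3 steps, catalyzed by the products of Phgdh, Psat1 and Psph in that order. Serine hydroxymethyltransferases then pass one carbon of serine to tetrahydrofolate, yielding glycine, and the folate enzymes oxidize or reduce that carbon in parallel cytosolic and mitochondrial branches that feed purine, thymidylate and methyl group synthesis. Activated T cells draw on this pathway when they proliferate. Many of these genes, Asns among them, are known targets of the transcription factor ATF4, which is induced when amino acids run short.

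Library totals ran from 30727686 to 37717324 counts, so that 3 counts, the floor used here, equaled 0.0795 to 0.0976 CPM, the count scaled to a common library size. Values in CPM below were adjusted by the trimmed mean of M values (TMM), and fold changes are on the log2 scale with their standard error (SE), Sora-Treg over ctrl-Treg. Foxp3 was measured at 252.3 to 268.8 CPM among ctrl-Treg and 268.4 to 277.6 CPM among Sora-Treg libraries, and the 6 T cell and Treg markers examined (Cd3e, Cd4, Foxp3, Il2ra, Ctla4 and Ikzf2) were all present. Of these 6, 5 were called higher in Sora-Treg cells and Ikzf2 was not called. These and the marker calls below stand beside 29.9% of all tested genes called lower and 29.7% called higher. The sums, 3605 to 3657 CPM against 6301 to 6431 CPM, rose mainly with Il2ra (1934 to 3795 CPM) and Ctla4 (383.2 to 1108 CPM). Cd3e was higher by 0.60 ± 0.03 on the log2 scale, but Cd4 and Foxp3 by only 0.06 ± 0.03 and 0.07 ± 0.03. In FPKM, which carries no TMM scaling, mean Cd4 (203.6 and 196.1) and Foxp3 (68.5 and 66.6) were lower with Sora. Summed over 7 myeloid markers, control replicates 1 and 2 stood apart at 93.3 and 93.0 CPM. Control replicate 3 was at 24.8 CPM, and the Sora-Treg libraries were at 22.4, 42.7 and 20.8 CPM. Of the 6 that were tested, 4 (Lyz2, Csf1r, Itgam and Adgre1) were called lower in Sora-Treg cells. Cd68 and Fcgr3 were not called, and the 2 groups of libraries overlapped for all 6. Of 4 B cell markers (Cd79a, Cd79b, Ms4a1 and Pax5), 3 were tested and all 3 were lower in Sora-Treg cells. Their sums of 9.30 to 10.3 CPM against 6.05 to 7.65 CPM were mostly Cd79b (means 8.39 and 6.57 CPM). Cd79a had 3 to 53 and Pax5 0 to 16 counts per library, near the floor in some Sora-Treg libraries. The CD8 markers summed to 13.2 to 15.1 and 12.6 to 13.8 CPM, with Cd8a lower (2.65 against 1.62 CPM, log2 fold change -0.71 ± 0.22, edgeR adjusted p = 0.00872) and Cd8b1 not called, and the erythroid and platelet markers to 0.137 to 0.406 and 0.0281 to 0.132 CPM. The part of these markers in the results below was not tested. A fit without control replicates 1 and 2, chosen after seeing the data, leaves 1 control library that is assumed to vary as the 3 Sora-Treg libraries do. In it the log2 fold changes of the 9 genes ran from -2.16 to -0.70 and that of Mthfd1l was 0.40.

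Of all tested genes, 29.9% were called lower and 29.7% higher in Sora-Treg cells at an adjusted p under 0.05 in the edgeR test (59.6% in either direction), against 9 and 1 of the 10 genes. The study's fold limit for differentially expressed genes (DEGs), a log2 fold change beyond 1, was passed downward by 3 of the 10 (Aldh1l2, Phgdh and Shmt1) and upward by none, and by 4.97% and 6.3% of tested genes (11.3% in either direction). Mthfd1 and Asns lay close to that limit, and 5 of the 10 passed it downward with upper quartile scaling, with library totals or with limma on FPKM. For none of the 10 did the 3 ctrl-Treg values overlap the 3 Sora-Treg values, and among all tested genes 32.0% were lower and 31.8% higher without overlap. The median log2 fold change of the 10 genes was -0.92, beside -0.004 over all tested genes. Summed over the 10 genes, transcript abundance was 1890, 1886 and 1874 CPM in ctrl-Treg libraries and 1142, 1129 and 1165 CPM in Sora-Treg libraries, leaving 60.8% of the control level. In bulk RNA, fewer cells expressing these genes and less of their mRNA per cell cannot be told apart.

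**Figure D1:**
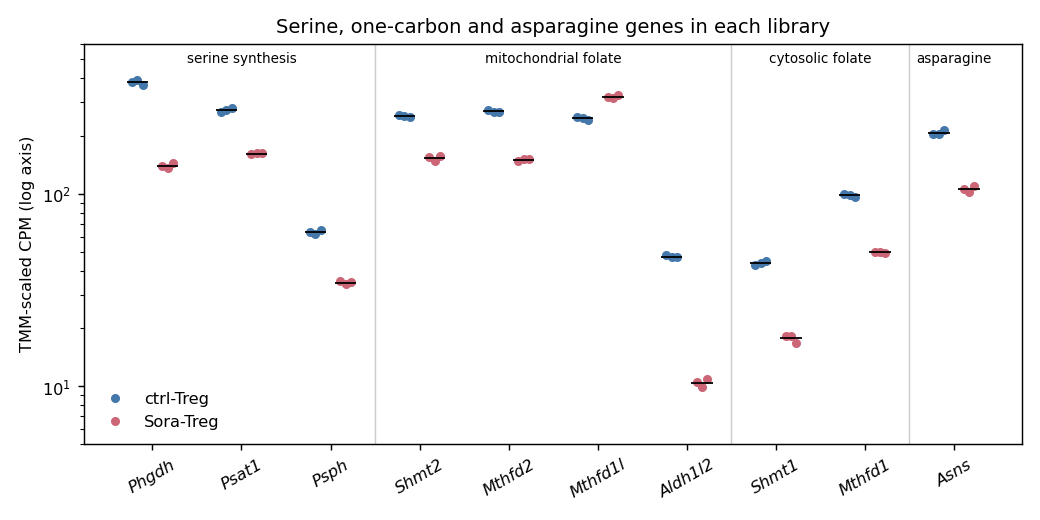
Abundance of each of the 10 genes in TMM-scaled CPM on a log axis, one point per library, for 3 ctrl-Treg and 3 Sora-Treg libraries, with the group mean drawn as a line. The Sora-Treg points lie below the ctrl-Treg points for 9 genes and above them for Mthfd1l, and the groups do not overlap for any gene.

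The first group comprised the 3 enzymes of serine synthesis, and all of them fell, beside 29.9% of all tested genes. Phgdh encodes phosphoglycerate dehydrogenase, which commits 3-phosphoglycerate to serine synthesis, and lies at chromosome 3, 98313171 to 98339969, on the minus strand (all gene positions are from RefSeq on GRCm38.p6). It was measured at 382.9, 390.6 and 367.0 CPM in ctrl-Treg libraries and at 139.7, 136.1 and 145.1 CPM in Sora-Treg libraries. The lowest ctrl-Treg library was thus well above the highest Sora-Treg library, and the log2 fold change was -1.44 ± 0.03 (SE, n = 3 per group, edgeR adjusted p = 2.89e-20), a 2.71-fold decrease. Among all tested genes, 2.95% had a lower log2 fold change than Phgdh.

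Psat1, the phosphoserine aminotransferase of the middle step (chromosome 19, 15905123 to 15925059, minus strand), had 265.1, 273.0 and 280.4 CPM in ctrl-Treg libraries and 160.1, 163.1 and 162.5 CPM in Sora-Treg libraries. Its decrease was the shallowest of the 3 genes, with a log2 fold change of -0.75 ± 0.03 (edgeR adjusted p = 1.25e-15). Psph, the phosphoserine phosphatase that releases free serine (chromosome 5, 129765558 to 129787443, minus strand), had 63.4, 61.9 and 65.2 CPM against 35.3, 33.9 and 34.7 CPM. Its log2 fold change was -0.87 ± 0.05 (edgeR adjusted p = 1.51e-13), so that 54.6% of the control level was left. Psph shares 452 of its 4329 exonic bases (GENCODE M21) with Cct6a on the opposite strand, a gene with a log2 fold change of -0.23 ± 0.03. Because the strand setting of the counting was not given in the sources used here, reads from these shared bases cannot be told apart.

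Together the 3 genes of serine synthesis summed to 716.5 ± 7.80 CPM without and 336.8 ± 4.85 CPM with Sora (mean ± SD, n = 3), which was 47.0% of control. With the steeper fall of Phgdh, the proportions of the 3 transcripts differed between the groups. On the FPKM scale (the count divided by gene length and library total), the Psat1 to Phgdh ratio was 0.520, 0.525 and 0.574 in ctrl-Treg libraries and 0.861, 0.900 and 0.841 in Sora-Treg libraries. The Psph to Phgdh ratio likewise moved from 0.0790, 0.0756 and 0.0848 to 0.121, 0.119 and 0.114. Both ratios were chosen after the values were seen and carry no test.

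The promoters of Phgdh and Psph are shown because, with Asns, they were the windows of these genes that held the core of an antioxidant response element, TGACNNNGC, the kind of sequence that NFE2L2 (NRF2) binds. No window was at hand for Aldh1l2. For the other 9 of the 10 genes there were 10 RefSeq windows (GRCm38.p6) of 300 bases, from 250 before to 50 after a start site. They are printed 5′ to 3′ along the gene's strand, with the match in capitals. In both, the motif stands on the opposite strand, where the printed strand reads GCNNNGTCA. Its first printed base is 53 before the start site in Phgdh and 4 after that of the Psph window. The start site of the Psph window lies inside the gene, downstream of the gene's 5′ end at 129787443. Those of the Mthfd1, Mthfd1l and Mthfd2 windows, and of the Psat1 window at 15924573 to 15924872, also lie inside their genes.
Phgdh, chr3:98339920-98340219, minus strand: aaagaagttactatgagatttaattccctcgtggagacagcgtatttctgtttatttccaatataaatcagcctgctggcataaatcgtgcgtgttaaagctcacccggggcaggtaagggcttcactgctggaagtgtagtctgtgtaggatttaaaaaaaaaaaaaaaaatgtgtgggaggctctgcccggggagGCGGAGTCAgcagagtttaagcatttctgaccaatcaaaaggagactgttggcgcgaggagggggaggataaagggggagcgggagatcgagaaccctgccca
Psph, chr5:129787204-129787503, minus strand: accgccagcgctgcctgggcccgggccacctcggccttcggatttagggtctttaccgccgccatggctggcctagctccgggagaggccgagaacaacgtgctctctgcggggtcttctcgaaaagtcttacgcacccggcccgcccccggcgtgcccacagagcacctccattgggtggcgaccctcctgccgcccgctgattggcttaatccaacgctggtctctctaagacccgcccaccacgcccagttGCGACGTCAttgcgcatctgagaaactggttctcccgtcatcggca
The core was present in 12.4% of all 32851 mouse windows searched on both strands and in 14.2% of the 13635 windows of tested genes. A match of these letters is a description of the sequence and not evidence of binding. Nfe2l2 itself was measured at 38.8 CPM without and 34.6 CPM with Sora (log2 fold change -0.16 ± 0.05, edgeR adjusted p = 0.00897).

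The second group was the folate enzymes, of which 5 of 6 fell, beside 29.9% of all tested genes. Shmt1 and Mthfd1 act in the cytosol. Shmt1, the cytosolic serine hydroxymethyltransferase (chromosome 11, 60788897 to 60811265, minus strand), had 42.5, 43.6 and 44.9 CPM in ctrl-Treg libraries and 18.2, 18.3 and 16.9 CPM in Sora-Treg libraries. The ctrl-Treg libraries were all more than 20 CPM above the Sora-Treg libraries, and the log2 fold change was -1.30 ± 0.06 (edgeR adjusted p = 1.23e-14). Shmt1 shares 184 of 3883 exonic bases with Smcr8 on the opposite strand (log2 fold change -0.28 ± 0.04). Mthfd1, a trifunctional enzyme that interconverts the one-carbon forms of cytosolic folate (chromosome 12, 76254406 to 76319820, plus strand), had 100.2, 98.9 and 96.2 CPM against 50.02, 49.66 and 49.16 CPM. With a log2 fold change of -0.99 ± 0.04 (edgeR adjusted p = 8.58e-16) it lay just inside the DEG limit of 1. The cytosolic genes together fell from 142.2 ± 0.922 to 67.4 ± 1.22 CPM, 47.4% of control.

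Among the 4 mitochondrial folate genes, 3 fell and 1 rose, beside 29.9% and 29.7% of all tested genes. Shmt2, the mitochondrial serine hydroxymethyltransferase (chromosome 10, 127517123 to 127522444, minus strand), had 257.2, 254.4 and 250.1 CPM in ctrl-Treg libraries and 156.2, 149.0 and 156.8 CPM in Sora-Treg libraries. Its log2 fold change of -0.72 ± 0.03 (edgeR adjusted p = 3.70e-15) was the smallest of the 9 decreases. Shmt2 shares 32 of 3109 exonic bases with Ndufa4l2 on the opposite strand, a gene with 10 counts or fewer in every library. Mthfd2, the mitochondrial methylenetetrahydrofolate dehydrogenase and cyclohydrolase, acts on the folate that SHMT2 charges and lies at chromosome 6, 83305704 to 83326011, minus strand. It had 273.5, 266.3 and 265.9 CPM against 148.0, 151.2 and 151.9 CPM, a log2 fold change of -0.84 ± 0.03 (edgeR adjusted p = 1.14e-16). The 6 Shmt2 and Mthfd2 values of each group lay in a narrow band, with every Sora-Treg value below every ctrl-Treg value.

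Aldh1l2 showed the deepest decrease of the 10 genes. It encodes the mitochondrial 10-formyltetrahydrofolate dehydrogenase, which oxidizes the formyl group to carbon dioxide and makes NADPH, and lies at chromosome 10, 83487447 to 83534146, minus strand. Its raw counts were 1887, 1702 and 1493 in ctrl-Treg libraries and 319, 315 and 389 in Sora-Treg libraries. On the CPM scale these were 47.9, 46.8 and 46.8 against 10.5, 9.88 and 10.9. The ctrl-Treg libraries were near one another and far above the Sora-Treg libraries, with a 4.51-fold decrease and a log2 fold change of -2.17 ± 0.06 (edgeR adjusted p = 3.31e-18). Only 1.05% of tested genes had a lower log2 fold change. Aldh1l2 shares 1056 of 7503 exonic bases with D10Wsu102e on the opposite strand, which had 2993 to 3671 counts per library and a log2 fold change of 0.09 ± 0.04.

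Mthfd1l was the exception. Its product, mitochondrial formyltetrahydrofolate synthetase, releases formate that leaves for the cytosol, and the gene lies at chromosome 10, 3972892 to 4167081, plus strand. It had 251.4, 246.7 and 242.6 CPM in ctrl-Treg libraries and 318.1, 315.7 and 326.9 CPM in Sora-Treg libraries. Every Sora-Treg library was above every ctrl-Treg library, and the log2 fold change was 0.37 ± 0.03 (edgeR adjusted p = 9.65e-11), a 1.30-fold increase. Among all tested genes, 80.0% had a lower log2 fold change, so that the increase itself was moderate. Shmt2, Mthfd2 and Aldh1l2 together summed to 569.6 ± 8.14 CPM without and 314.8 ± 4.75 CPM with Sora, 55.3% of control. With Mthfd1l included, the mitochondrial folate genes summed to 816.5 ± 12.5 CPM without and 635.1 ± 10.6 CPM with Sora, 77.8% of control.

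**Figure D2:**
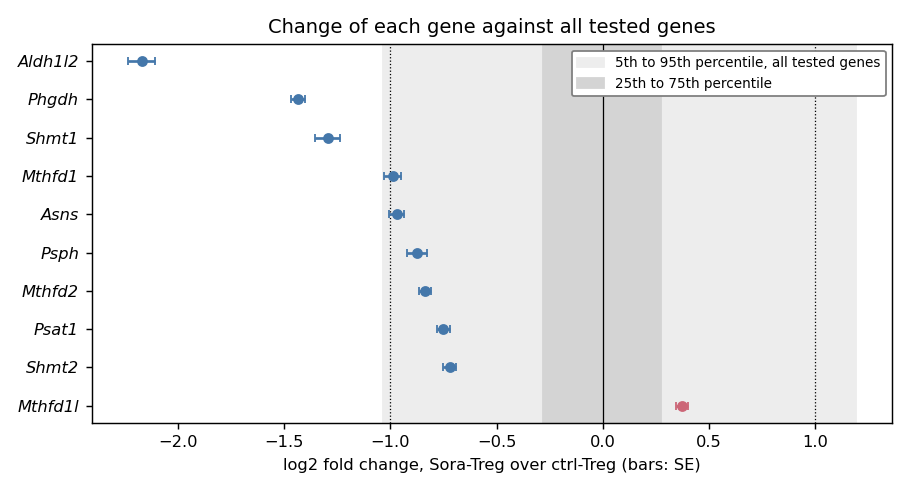
Log2 fold change (Sora-Treg over ctrl-Treg, x axis) of each of the 10 genes (y axis), with bars of 1 SE and dotted lines at the fold limit of 1 in each direction. Light and dark grey bands span the 5th to 95th and the 25th to 75th percentiles of log2 fold change over all 13463 tested genes, and Aldh1l2, Phgdh and Shmt1 lie to the left of the lighter band.

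Asns encodes asparagine synthetase, which makes asparagine from aspartate and glutamine, and lies at chromosome 6, 7675165 to 7693209, minus strand. It had 205.3, 203.7 and 214.9 CPM in ctrl-Treg libraries and 106.2, 102.1 and 109.8 CPM in Sora-Treg libraries. The groups were far apart, and the log2 fold change was -0.97 ± 0.04 (edgeR adjusted p = 1.41e-16), leaving 51.0% of control. Its promoter is shown because it was the one window of these genes that held the amino acid response core, TGATGNAA (TTNCATCA on the other strand), the kind of composite site that ATF4 binds. The 8 bases of that match begin 23 bases before the start site, and an antioxidant core on the opposite strand begins 172 bases before it. Both are in capitals and they do not overlap.
Asns, chr6:7693160-7693459, minus strand: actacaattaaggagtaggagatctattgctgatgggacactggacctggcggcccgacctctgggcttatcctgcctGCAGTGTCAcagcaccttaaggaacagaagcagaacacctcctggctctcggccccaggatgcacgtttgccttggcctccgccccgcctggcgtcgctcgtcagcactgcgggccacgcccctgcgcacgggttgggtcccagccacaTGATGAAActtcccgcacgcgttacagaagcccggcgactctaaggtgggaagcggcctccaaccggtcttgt
The amino acid response core was present in 3.97% of all windows and 2.3% of the windows of tested genes. The E-box CACGTG, which MYC binds, matched in none of the 10 windows at hand, which do not cover Aldh1l2. It matched in 7.15% of all windows and in 9.67% of those of tested genes. The absence of a match says only that these letters do not occur in the window.

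Ordered by level per length in FPKM, the 10 genes ranked differently in the 2 groups. Phgdh led in ctrl-Treg cells at 211.4 ± 6.68 FPKM (mean ± SD, n = 3), followed by Mthfd2 at 118.1 ± 2.23, Shmt2 at 114.6 ± 1.87 and Psat1 at 113.9 ± 2.96 FPKM. The ranges of Shmt2 and Psat1 overlapped, and the lowest Mthfd2 library (116.8 FPKM) was barely above the highest Shmt2 library (116.5 FPKM). Asns followed at 91.5 ± 2.63 and Mthfd1l at 57.2 ± 1.16 FPKM. Mthfd1, Psph, Shmt1 and Aldh1l2 closed the order at 24.7, 16.8, 14.9 and 5.32 FPKM, each apart from its neighbor. In Sora-Treg cells Phgdh, at 72.0 ± 2.33 FPKM, overlapped Mthfd1l at 68.5 ± 1.27 FPKM, which had moved from sixth to second place. Shmt2 at 64.2 ± 1.87 and Psat1 at 62.4 ± 0.497 FPKM overlapped, Mthfd2 stood at 61.0 ± 0.752 FPKM, and the order of the 5 genes below them was as in ctrl-Treg cells. Of the members' summed FPKM, the share of Phgdh was 27.5 ± 0.731% without and 18.1 ± 0.277% with Sora, whereas that of Mthfd1l was 7.44 ± 0.104% and 17.2 ± 0.0632%.

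Ratios within a library, free of library scaling, compared mitochondrial with cytosolic enzymes and mitochondrial enzymes with each other. The Mthfd1l to Mthfd1 ratio was 2.32, 2.30 and 2.33 in ctrl-Treg libraries and 5.88, 5.87 and 6.15 in Sora-Treg libraries, a difference of 1.36 on the log2 scale. The Shmt2 to Shmt1 ratio was 8.02, 7.74 and 7.40 against 11.4, 10.8 and 12.3, a difference of 0.57 on the log2 scale. In both pairs every Sora-Treg library exceeded every ctrl-Treg library, and both gave p = 0.1 in a 2-sided exact permutation test, the smallest p that 3 libraries against 3 allow, so that neither could pass 0.05 (adjusted p over the 3 ratios tested = 0.15). The ratio of Mthfd2 to its paralog Mthfd2l was 96.7, 80.7 and 81.5 against 75.9, 121.2 and 75.6, overlapping between groups (log2 difference 0.04, exact permutation p = 1, adjusted p = 1). Mthfd2l was measured at 45 to 136 counts per library. Without a test, and chosen after the values were seen, the Mthfd1l to Mthfd2 ratio was 0.484, 0.488 and 0.481 in ctrl-Treg libraries and 1.13, 1.10 and 1.13 in Sora-Treg libraries. The Aldh1l2 to Mthfd2 ratio was 0.0450, 0.0450 and 0.0451 against 0.0182, 0.0168 and 0.0185, tight within each group and far apart between them.

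**Figure D3:**
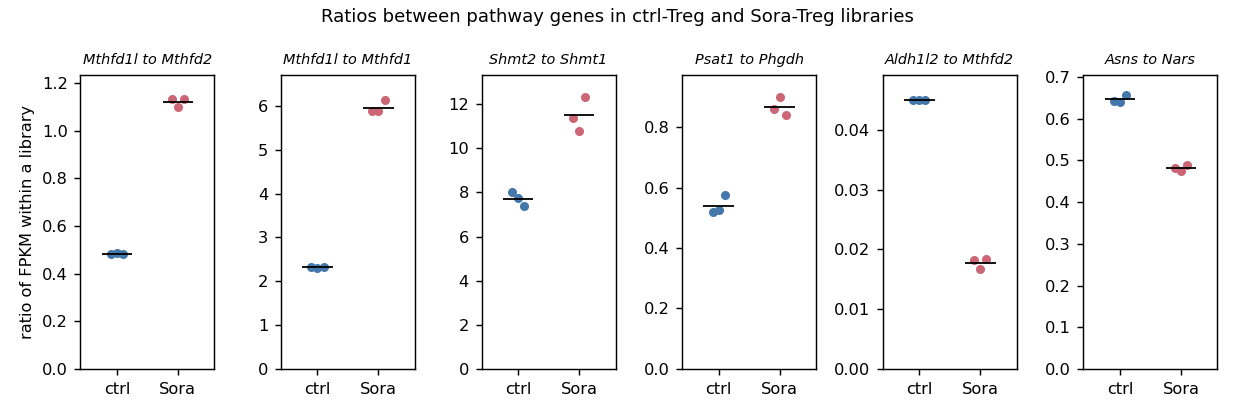
Ratios of FPKM between 6 pairs of genes within each library (y axis, linear from 0 in each panel), with one point for each of the 3 ctrl-Treg and 3 Sora-Treg libraries and a line at the group mean. The Mthfd1l to Mthfd2, Mthfd1l to Mthfd1, Shmt2 to Shmt1 and Psat1 to Phgdh ratios are higher in every Sora-Treg library, and the Aldh1l2 to Mthfd2 and Asns to Nars ratios are lower in every one.

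Around these enzymes, 70 further genes of connected steps were listed, of which 69 were examined and 62 were tested. In Sora-Treg cells 34 of the 62 were lower, 13 were higher and 15 were not called, with a median log2 fold change of -0.21. Over all tested genes 29.9% were lower and 29.7% higher. The counts of each list below, the regulators included, stand beside those shares. All 4 glycolytic genes examined around 3-phosphoglycerate, Gapdh and Pgk1 before it and Pgam1 and Eno1 after it, were called higher. Gapdh rose from 255.8 to 436.4 CPM (log2 fold change 0.77 ± 0.03, edgeR adjusted p = 4.07e-16). Pgk1, whose product makes 3-phosphoglycerate, rose from 2312 to 4155 CPM (log2 fold change 0.85 ± 0.02, edgeR adjusted p = 8.36e-20), and Pgam1, whose product carries it on through glycolysis, rose from 363.2 to 592.0 CPM (0.70 ± 0.03, edgeR adjusted p = 2.44e-16). Eno1 was higher by 0.09 ± 0.02 with TMM scaling, but lower (-0.03) when scaled by library totals or measured in FPKM. Gapdh, Pgk1 and Pgam1 were thus higher and the 3 genes of the serine branch lower.

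Of the 11 tested genes of serine and glycine handling, 7 were lower and 2 higher (median -0.11). Slc1a4 and Slc1a5, neutral amino acid transporters that carry serine, fell by 0.91 ± 0.05 and 0.41 ± 0.03 on the log2 scale (edgeR adjusted p = 5.73e-13 and 9.57e-12). Serinc1, of the serine incorporator family, and Sfxn3, of a family of mitochondrial serine carriers, were higher by 0.50 ± 0.04 and 0.19 ± 0.04 (edgeR adjusted p = 2.91e-11 and 3.18e-04). Of the 15 tested folate partners, 9 were lower and 3 higher (median -0.33). Tyms, thymidylate synthase, fell from 37.4 to 16.8 CPM (log2 fold change -1.16 ± 0.06, edgeR adjusted p = 3.03e-13), and Gart, which uses formyl folate in purine synthesis, fell from 127.0 to 77.8 CPM (-0.71 ± 0.04, edgeR adjusted p = 7.49e-14). The paralogs of the 10 genes went separate ways. Mthfd2l fell with Mthfd2 (-0.85 ± 0.21, edgeR adjusted p = 0.00134), whereas Aldh1l1, the cytosolic counterpart of Aldh1l2, was higher at 5.91 against 4.06 CPM (0.54 ± 0.15, edgeR adjusted p = 0.00413). Ggh, which trims glutamates from stored folates, was higher by 0.45 ± 0.09 (edgeR adjusted p = 2.22e-04).

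In the methionine cycle and transsulfuration, 6 of 10 tested genes were lower and 1 higher (median -0.32). Cth, cystathionine gamma-lyase, which releases cysteine, had 49.9, 49.4 and 49.9 CPM in ctrl-Treg libraries and 10.1, 9.98 and 10.8 CPM in Sora-Treg libraries. Its log2 fold change of -2.27 ± 0.06 (edgeR adjusted p = 9.65e-19) was close to that of Aldh1l2. Ahcyl2, a relative of adenosylhomocysteinase, fell by 0.37 ± 0.03 (edgeR adjusted p = 1.43e-10) and Mat2b, a regulatory subunit of methionine adenosyltransferase, was higher by 0.17 ± 0.04 (edgeR adjusted p = 0.00150). Around asparagine, 4 of 10 tested genes were lower and 2 higher (median -0.09), not far from the 29.9% and 29.7% of all tested genes. Nars, the asparaginyl-tRNA synthetase that uses asparagine, fell from 354.2 to 242.2 CPM (-0.55 ± 0.03, edgeR adjusted p = 9.32e-14), less than Asns did, and the Asns to Nars ratio in FPKM went from 0.642, 0.641 and 0.657 to 0.483, 0.474 and 0.489 (untested, chosen after the values were seen). Ass1, which uses aspartate, fell by 0.41 ± 0.03 (edgeR adjusted p = 2.46e-10), while Gls2, a glutaminase, and Asl, argininosuccinate lyase, were higher by 0.75 ± 0.06 and 0.28 ± 0.05 (edgeR adjusted p = 5.46e-11 and 1.11e-04). Of the 5 proline enzymes, 3 were lower and none was higher (median -0.49), led by Aldh18a1 (-0.49 ± 0.03, edgeR adjusted p = 3.37e-12) and Pycr1 (-0.85 ± 0.09, edgeR adjusted p = 1.93e-08).

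**Figure D4:**
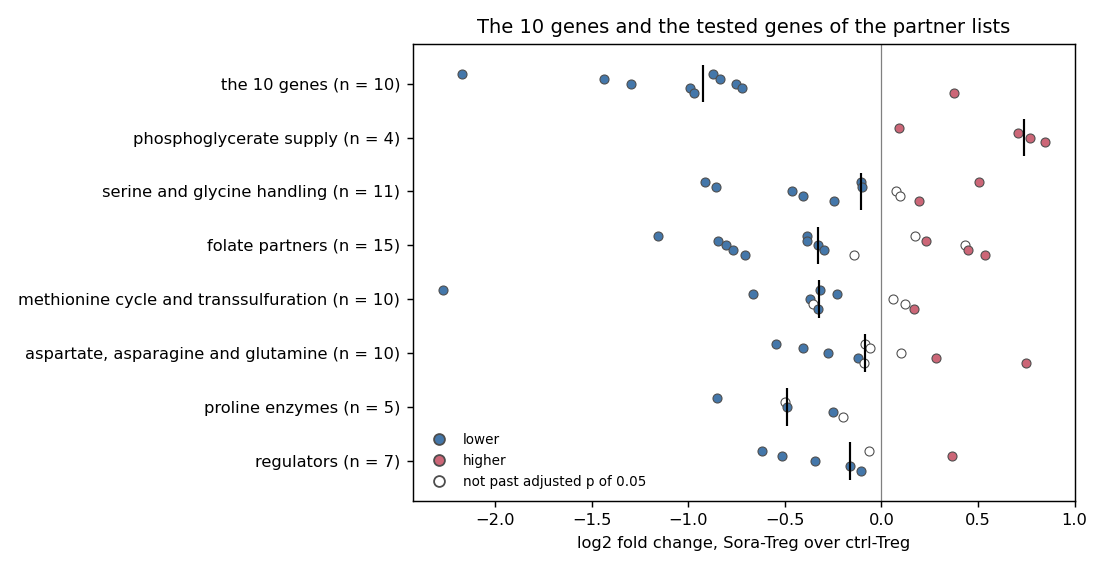
Log2 fold changes (Sora-Treg over ctrl-Treg) of the tested genes of each connected group, one point per gene (filled where called, open where not) with a bar at the group median, beside the 10 genes described here. The 4 phosphoglycerate genes lie above 0, and the medians of the other groups lie below it.

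Of 7 transcriptional and stress-response regulators, 5 were lower and 1 higher (median -0.17). Atf4 mRNA was at 447.5, 439.5 and 443.3 CPM in ctrl-Treg libraries and at 421.1, 399.3 and 416.4 CPM in Sora-Treg libraries. The groups did not overlap, but the difference was small beside those of the enzymes, with a log2 fold change of -0.11 ± 0.03 (edgeR adjusted p = 0.00203). ATF4 is regulated largely at translation, and its protein was not measured here. Trib3 and Cebpg, both known ATF4-linked genes, fell by 0.62 ± 0.04 and 0.34 ± 0.04 (edgeR adjusted p = 3.11e-11 and 5.49e-08), and Ddit3 stood at -0.07 ± 0.05 (edgeR adjusted p = 0.21). Myc rose from 315.4 to 405.8 CPM (0.36 ± 0.03, edgeR adjusted p = 1.87e-10).

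The genes outside the 10 with the most similar pattern, by Euclidean distance over the 6 libraries to the median profile of the 10, were Spry1 (0.0577), Brca1 (0.0637), Bcat1 (0.0653), Ttyh3 (0.0770) and Nusap1 (0.0772), in log2 units. Their levels in ctrl-Treg and Sora-Treg cells came to 58.9 and 31.1, 56.4 and 29.6, 123.5 and 66.1, 179.4 and 98.3, and 68.8 and 36.8 CPM, respectively. Within the 10, Psph (0.0664) and Asns (0.0944) lay nearest to that profile, and Aldh1l2 (1.54) and Mthfd1l (1.58) lay farthest from it.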

How the data were processed

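RNA of sorted GFP+ Treg cells was sequenced on BGISEQ-500, with 3 control and 3 sorafenib libraries grouped by the labels. The authors deposited 1 table of counts per gene symbol and the matching FPKM values. The study's methods name Bowtie2 and GRCm38, whereas the submitters' processing notes list fastp, HISAT2, HTSeq, R 3.2.0, DESeq2 and GRCm39, so the aligner and build behind the counts are uncertain. The strand setting and annotation release were not given in the sources used here. Each deposited FPKM equaled count over a single length per gene over the library total (largest relative difference 1.64e-06 over 15431 genes). FPKM therefore carries no TMM scaling.

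Counts were tested with edgeR 4.0.16 (R 4.3.3): filterByExpr, TMM, glmQLFit and glmQLFTest, Benjamini-Hochberg over 13463 genes. SE was derived from the F statistic. A call is an adjusted p under 0.05 and a DEG also has an absolute log2 fold change over 1. Ratios of FPKM were compared by an exact permutation test over libraries. Procedures were tested on simulated data. Alternatives were limma 3.58.1 on log2(FPKM + 1 or 0.1), DESeq2 1.42.0, other scalings and filters, a replicate block and omission of each library. Omitting control replicates 1 and 2 together was chosen after seeing the data. The 10 genes and all lists were chosen with earlier results of these data known, and support nothing by themselves. All 10 genes are named; of each connected list, the 2 higher and 2 lower calls with the smallest adjusted p; the paralogs Mthfd2l and Aldh1l1, Atf4 and Myc; and the 5 genes nearest in pattern. Eno1, Gapdh, Nfe2l2, Ddit3, Cd8a and the genes overlapping a member were named after their values were seen, as were Cbs, Gcsh and Gldc. Nothing in the labels says that libraries came from separate cultures or animals, so p-values measure only the spread between these libraries, which may be technical. Replicates of a group differed beyond sampling noise. Mat1a was not analysed here, and 1 further B cell marker is not reported here. Positions are from RefSeq on GRCm38.p6.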

Additional observations from a re-analysis of the deposited data

How the results depend on the processing

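All 10 genes kept their direction and call in all 18 alternatives. The number past the DEG limit was 3 in the main fit, and Mthfd1 and Asns lie near that limit. It was 5 with upper quartile scaling and with library totals. Limma on log2(FPKM + 1), on log2(FPKM + 0.1) and without a filter gave 5 as well. It was 4 with a filter of at least 1 count in any sample and 4 without control replicate 3. DEGs over all genes fell from 1517 to 463, 744 and 459 with those limma settings. Partner genes called higher fell from 13 to 8 with limma without a filter. Scaling by library totals moved the median of all genes to -0.12 and the share of calls that were lower from 50.2% to 66.2%, and Eno1 turned to -0.027 with it and with the limma settings. Aldh1l2 ranged from -2.29 to -1.60 and Mthfd1l from 0.26 to 0.40 over the alternatives. Of 30 named partners, 24 kept their call, and where called their direction, in every alternative that tested them. The exceptions were Eno1, Mat2b, Sfxn3, Aldh1l1, Nfe2l2 and Ddit3. Cbs, counted among the 24, was never called and was tested in 15 of the 18 alternatives. Its log2 fold change ranged from -0.68 to 0.81, so that it kept no direction. The replicate numbers showed no clear pairing of the libraries (correlations of -0.0438, 0.0591 and 0.0299, with 3 of 6 libraries closest to their own number). Whether libraries of the same number shared a culture or animal cannot be told from this. With the replicate block, 9 of the 10 genes were lower and 1 higher. Of the partner genes, 36 were lower and 14 higher, and over all genes 1523 were DEGs. The ratio differences of 1.364, 0.574 and 0.043 cannot change with a block, because every replicate number is in both groups. The cause of these shifts was not tested. Precision is limited by 3 libraries a group, and for Mthfd2l by counts of 45 to 136.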

Other observations

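Enzymes that stand next to the 10 genes in the pathway were at very different depths. Cbs, the step before Cth in transsulfuration, had 5 to 22 counts per library (0.348 CPM without and 0.279 CPM with Sora) and was not called (edgeR adjusted p = 0.58), while Cth was measured at 49.7 and 10.3 CPM. Gldc, the decarboxylase of the glycine cleavage system, had 0 to 10 counts per library and was not tested, whereas Gcsh, a carrier protein of the same system, fell from 42.3 to 23.4 CPM (log2 fold change -0.86 ± 0.06, edgeR adjusted p = 1.57e-11).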
